A study of Mus musculus with 4 samples.

Results

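The enhancers examined here are the 496 regions of mouse neural stem cells (NSCs) that lay just below the line drawn between super enhancers (SEs) and typical enhancers. They were selected on Med1 signal minus IgG signal, of at least 2000 and below 3250, and make up 6.13% of the 8089 regions in the authors' enhancer table. In that table they hold ranks 446 to 941, and 0 of them is called an SE, whereas the 445 regions ranked above them all are. NS-5 cells, an untreated NSC line derived from mouse embryonic stem cells and kept dividing with EGF and FGF2, were fixed with di(N-succimidyl) glutarate followed by formaldehyde. Chromatin was precipitated with an antibody against Med1, Carm1 or Jmjd1c, or with IgG as the control, with 1 sample for each of these 4 antibodies. All values therefore come from 1 cell line without replicate error, and the intervals below cover only the number of regions or sites counted. Transcript levels were not analysed here, so neither the identity of the cells nor the activity of any gene was checked.

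Mediator is a large protein complex that connects transcription factors bound at enhancers with RNA polymerase II at promoters, and Med1 is one of its subunits. An SE is a cluster of enhancers with an exceptional load of Mediator, often found near genes that define a cell type. The line between SEs and other enhancers is set on a ranked curve that has no step at that point, so the enhancers directly under it differ little in Mediator load from the weakest SEs. Carm1, an arginine methyltransferase, and Jmjd1c, a member of the family of histone H3K9 demethylases, are coactivators that were studied as partners of Mediator in these cells.

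Comparison groups of the same relative width were used. The SEs just above the cutoff are the 251 regions with a Med1 minus IgG signal from 3250 to 5281, and the next lower enhancers are the 871 regions from 1231 to below 2000. The signal in the table is a normalized read density multiplied by the length of the region, so that it grows with length. The selected enhancers held 14.5% of the summed length of the regions in the table, with gaps between joined enhancers included. They held 15.2% of the Med1 signal and 13.7% of the IgG signal.

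To show the DNA at which the factors meet, the 200 bases around the centre of a paired Carm1 and Jmjd1c site are printed for 7 of the 8 highest-ranked selected enhancers that held such a centre within a Med1 site and whose nearest gene belongs to one of the gene lists used below. The sequences are from the NCBIM37 assembly (mm9), plus strand, 5′ to 3′. Capitals mark an E-box (CAGNTG, bound by basic helix-loop-helix factors), an NFI motif (TTGGC, one arm of the full palindrome) or a SOX motif (ACAAAG or ACAATG) on either strand.
Arhgap21 enhancer of rank 453, chr2:20958905-20959104: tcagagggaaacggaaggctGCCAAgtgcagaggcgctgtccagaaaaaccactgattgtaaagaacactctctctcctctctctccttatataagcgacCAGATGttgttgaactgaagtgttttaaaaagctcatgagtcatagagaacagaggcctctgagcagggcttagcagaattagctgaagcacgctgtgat
Fmnl2 enhancer of rank 478, chr2:52846998-52847197: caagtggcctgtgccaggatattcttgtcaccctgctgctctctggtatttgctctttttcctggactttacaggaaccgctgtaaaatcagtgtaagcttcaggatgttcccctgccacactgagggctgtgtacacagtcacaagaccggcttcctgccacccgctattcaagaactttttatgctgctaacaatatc
Tbl1xr1 enhancer of rank 495, chr3:21571509-21571708: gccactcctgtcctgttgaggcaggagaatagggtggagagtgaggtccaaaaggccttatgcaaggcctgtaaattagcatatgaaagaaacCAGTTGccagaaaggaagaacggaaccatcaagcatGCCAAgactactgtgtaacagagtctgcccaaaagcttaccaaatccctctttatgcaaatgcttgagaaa
Myc enhancer of rank 496, chr15:62041671-62041870: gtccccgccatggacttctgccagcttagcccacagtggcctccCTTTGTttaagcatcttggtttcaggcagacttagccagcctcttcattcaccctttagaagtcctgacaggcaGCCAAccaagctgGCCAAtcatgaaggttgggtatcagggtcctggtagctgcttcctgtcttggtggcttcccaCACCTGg
Bcas1 enhancer of rank 505, chr2:170231918-170232117: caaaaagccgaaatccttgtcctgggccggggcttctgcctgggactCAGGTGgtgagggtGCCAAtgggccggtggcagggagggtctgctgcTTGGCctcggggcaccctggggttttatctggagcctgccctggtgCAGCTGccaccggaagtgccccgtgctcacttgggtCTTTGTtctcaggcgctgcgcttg
Tbl1xr1 enhancer of rank 510, chr3:21532889-21533088: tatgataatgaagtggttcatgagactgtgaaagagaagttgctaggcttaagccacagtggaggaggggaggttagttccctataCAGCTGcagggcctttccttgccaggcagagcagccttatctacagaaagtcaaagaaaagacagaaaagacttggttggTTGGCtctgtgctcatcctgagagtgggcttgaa
Cspg5 enhancer of rank 532, chr9:110108642-110108841: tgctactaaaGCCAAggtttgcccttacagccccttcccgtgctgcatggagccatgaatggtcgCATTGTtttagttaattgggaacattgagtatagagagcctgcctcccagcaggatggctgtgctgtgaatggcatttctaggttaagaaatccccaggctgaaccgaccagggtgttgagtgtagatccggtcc

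These 7 sequences differed in their motifs. The stretch in the Bcas1 enhancer held 2 E-boxes, 2 NFI motifs and 1 SOX motif, and the one in the Myc enhancer held 1 E-box, 2 NFI motifs and 1 SOX motif. The stretch in the Fmnl2 enhancer held none of the 3 motifs. Both Tbl1xr1 stretches held 1 E-box and 1 NFI motif each.

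Across all the selected enhancers, 272 paired centres lay in 255 of the 496 regions, and 256 of the centres fell inside a Med1 site. Within 100 bp of these centres an E-box was found at 59.6% (162 of 272, 95% Wilson interval 53.6 to 65.2%), compared with 57.7% of the 1476 centres in all other enhancer regions. NFI motifs were found at 54.0% of centres compared with 57.2%, and AP-1 motifs (TGANTCA) at 8.09% compared with 7.86%. The octamer ATGCAAAT, recognised by POU factors, was found at 7 of the 272 centres (2.57%) and at 2.98% of the other centres. For these 4 motifs the interval of the difference spanned 0, with bounds of -4.60 and 8.04 percentage points for the E-box and -9.65 and 3.15 for the NFI motif. SOX motifs were found at 51.1% of centres (139 of 272, 45.2 to 57.0%) compared with 44.6% in all other enhancer regions, a difference of 6.46 percentage points (95% Newcombe interval 0.0158 to 12.9). Against the SEs just above and the next lower enhancers the SOX interval spanned 0 (differences of 4.15 and 7.37 points). Within 50 bp the difference from all other enhancer regions shrank to 0.270 points (-5.22 to 6.29). Against the 1284 paired centres outside enhancer regions, where SOX motifs were found at 31.9%, the difference was 19.2 points (12.7 to 25.6). An E-box, an NFI motif and a SOX motif were found together at 45 centres (16.5%), compared with 15.2% in all other enhancer regions (difference 1.37 points, -3.02 to 6.54). None of them was found at 25 centres (9.19%), compared with 10.6% (difference -1.38, -4.72 to 2.91). A match to these letters is not evidence of binding.

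**Figure D1:**
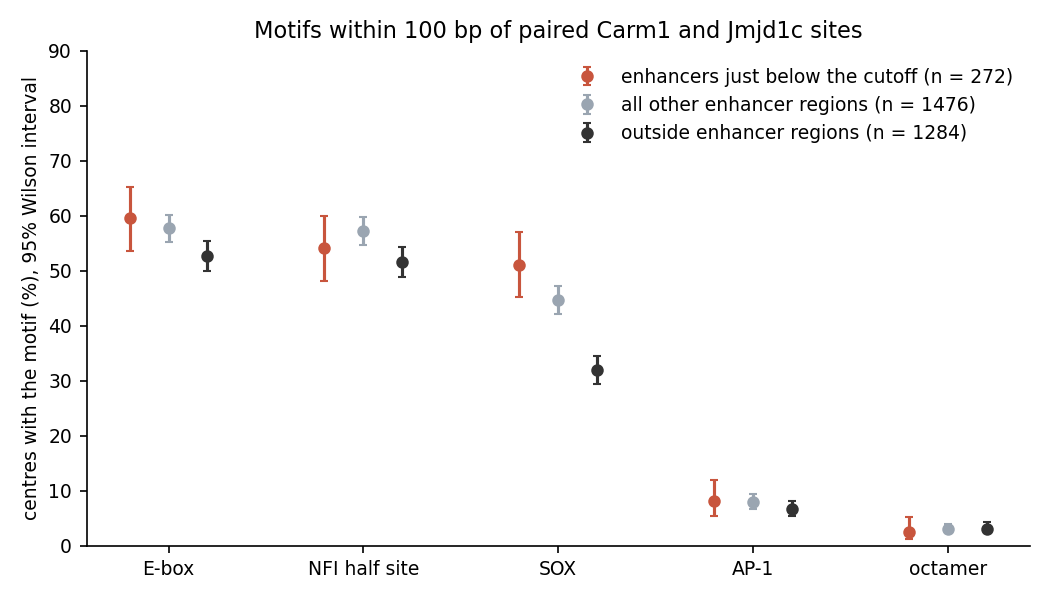
Share of paired Carm1 and Jmjd1c centres with each motif within 100 bp, in percent with 95% Wilson intervals, for 272 centres in the enhancers just below the cutoff, 1476 in all other enhancer regions and 1284 outside them. The SOX motif falls from 51.1% to 44.6% and 31.9% over these 3 groups, while AP-1 and octamer lie near the bottom of the axis in each.

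The values at the limits were as close as the ranking makes them. The lowest SEs were near Tsc22d4 (Med1 4282, IgG 999), Litaf (4460 and 1183) and Gm17434 (4090 and 833). The highest selected enhancers were near 1810011O10Rik (4391 and 1142), Pabpc6 (4080 and 839) and Slc35b1 (4579 and 1338). The Med1 minus IgG signal was thus 3256.8 in the lowest SE and 3249.8 in the region ranked next. At the other limit, the enhancers near 4930546C10Rik, Galnt10 and Plce1 (2005, 2002 and 2001) were included, and those near Zcchc13, Wasf2 and Hhatl (1999, 1998 and 1998) were not. No gap in signal marked either limit. The other 7 of the 10 highest-ranked enhancers were near Nat10, Hectd2, Pdlim5, Fancc, Arhgap21, Tead1 and Chn2.

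**Figure D2:**
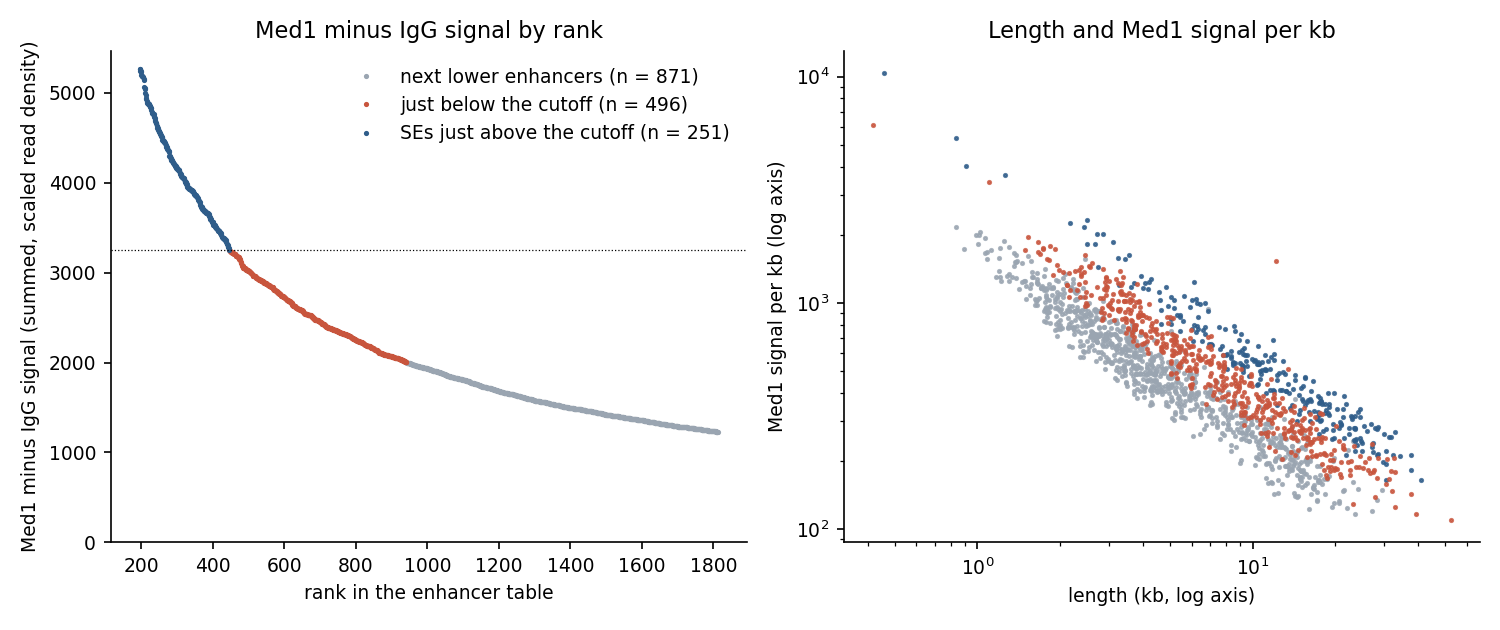
Left, Med1 minus IgG signal (summed scaled read density) against rank in the enhancer table, with a dotted line at the highest selected enhancer. Right, Med1 signal per kb against length in kb, both on log axes. The 496 selected enhancers continue the curve of the 251 SEs just above and the 871 next lower enhancers, and at a given length they lie between them.

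As for length, the selected enhancers had a median of 7068 bp (quartiles 3848 and 12750 bp), compared with 11974 bp in the SEs just above the cutoff and 4271 bp in the next lower enhancers. The median Med1 signal per kb was 501, 478 and 491 in the same order, and the IgG signal per kb was 135, 127 and 134. Med1 was 3.54 times IgG at the median selected enhancer, 3.71 times in the SEs just above and 3.38 times in the next lower enhancers. Length thus changed more between these groups than the density of Med1 did. All other typical enhancers together had a median length of 1654 bp and a median Med1 signal per kb of 353. Since the selection rests on the same signal, these values describe the regions and were not tested.

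A single enhancer made up 261 of the 496 regions (52.6%). Another 177 were joined from 2 enhancers, 43 from 3, 12 from 4, 2 from 5 and 1 from 6. Single enhancers made up 33.9% of the SEs just above the cutoff and 65.3% of the next lower enhancers. The selected enhancers therefore came in several forms. The 169 regions under 5 kb had a median Med1 signal per kb of 971 and were covered to 79.7% by Med1 sites. In the 153 regions of 5 to 10 kb the median signal per kb was 502, and in the 134 regions of 10 to 20 kb it was 277. The 40 regions of 20 kb and more had 183 per kb, and Med1 sites covered 10.2% of their length. The Med1 to IgG ratio was, in the same order, 4.62, 3.52, 2.92 and 2.19.

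The longest selected region lay 53.0 kb upstream of Ampd3, an AMP deaminase. It spanned 52583 bp and 5 enhancers, with 5758 units of Med1 and 3176 of IgG signal, and it held 1 Med1 site and 1 Jmjd1c site. Next in length were regions near Gm11077 (39148 bp), Hif1a (37718 bp, the hypoxia-inducible factor), Gm9833 (32919 bp), Chn2 (32907 bp), Lamb3 (32747 bp), Ank2 (32262 bp), Agap1 (31967 bp), Grm5 (31333 bp) and Uqcr10 (30919 bp). In all 10 of these regions the Med1 to IgG ratio lay between 1.56 and 2.22.

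At the other end, the highest density of Med1 minus IgG was found in the shortest region, of 416 bp (chr11:101465919-101466334), with 2546 units of Med1 and 189 of IgG signal. Its nearest protein-coding gene is Rdm1, 22.4 kb away, but the region holds a U2 small nuclear RNA gene, and sites of Med1, Carm1 and Jmjd1c all overlap it. Vertebrate snRNA genes are known to carry an octamer in a distal promoter element. The first 300 bases are printed because they hold an octamer (ATGCAAAT on either strand), in capitals, 228 bp before the annotated start of U2. An octamer was present in the first 300 bases of 1.90% of the 7572 regions of that length or longer. U2 genes occur in several near-identical copies, so which copy the reads came from is uncertain. The region was chosen for display after its values were seen.
U2 enhancer of rank 743, chr11:101465919-101466218: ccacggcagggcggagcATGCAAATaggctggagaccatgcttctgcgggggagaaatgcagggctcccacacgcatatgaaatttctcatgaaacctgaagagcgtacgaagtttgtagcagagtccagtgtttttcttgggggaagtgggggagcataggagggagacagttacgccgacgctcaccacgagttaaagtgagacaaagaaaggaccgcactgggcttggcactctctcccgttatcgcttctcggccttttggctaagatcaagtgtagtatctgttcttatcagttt

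Other dense regions, of 1493 to 1921 bp, lay near Lrsam1, C77080, Nr4a1, Rnf144a, Srek1, Mpzl1, Hspa8 and 2610203C20Rik. Over these 8 regions the Med1 signals lay between 2556 and 3306 and the IgG signals between 255 and 692. The region near C77080, on an exon of a noncoding RNA, had the strongest contrast among them (Med1 2787, IgG 255). The 1838 bp region near Srek1 had its middle 283.5 bp from the transcription start site of that gene and spans it. Of these 8 regions, 5 had a Carm1 site and 3 had a Jmjd1c site, where 33.4% and 38.8% of all regions in the table had one. Genes of U6, U2, Y or 7SK RNA were annotated in 5 of the 496 regions (1.01%). This was close to the shares with a small RNA gene in the next lower enhancers (1.03%) and in all other regions (0.764%, difference 0.244 percentage points, -0.374 to 1.59). Such a gene was annotated in 19 of the 251 SEs just above the cutoff (7.57%), a difference of -6.56 percentage points (-10.6 to -3.58).

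IgG signal separated a single region from the rest. The enhancer near Gm15319 (rank 808) had 18597 units of Med1 and 16357 of IgG signal, so that Med1 was 1.14 times IgG. Over the other selected enhancers the highest IgG signal was 4067. This region held no Med1 site, 1 Carm1 site and 2 Jmjd1c sites. In 482 of the 496 regions (97.2%) Med1 was at least 2 times IgG, compared with 72.4% of all other regions. This share rests on the signal of the selection.

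**Figure D3:**
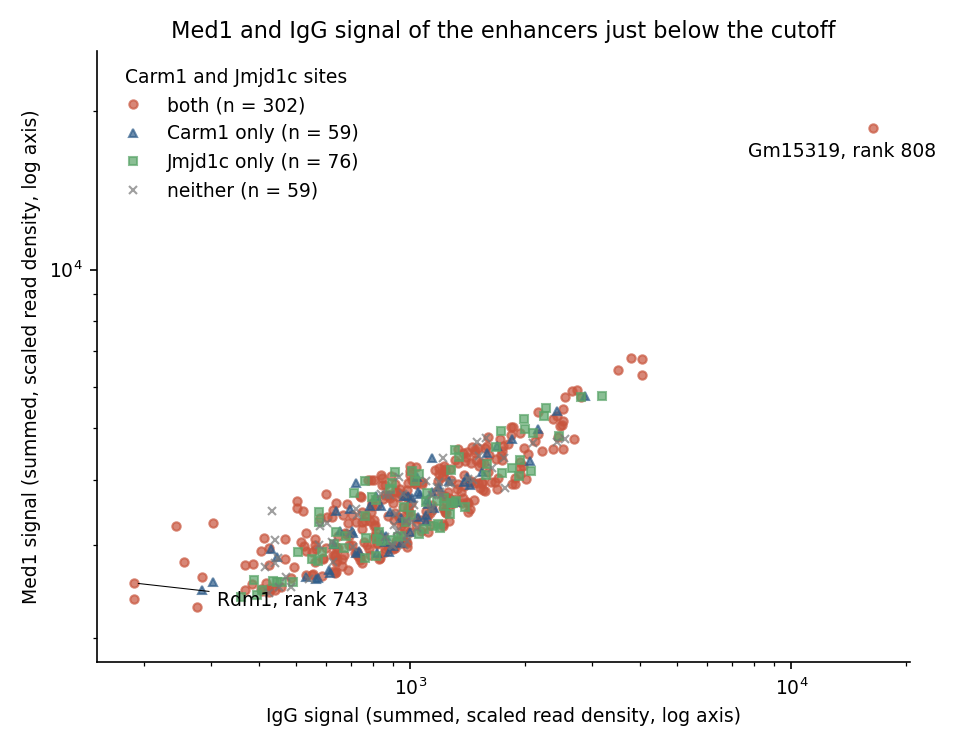
Med1 signal against IgG signal (summed scaled read density, log axes) for the 496 enhancers just below the cutoff, marked by whether they hold Carm1 and Jmjd1c sites. The regions form a single band apart from the one near Gm15319 (Med1 18597, IgG 16357), and the 59 regions with neither factor are spread along the band.

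Sites of the 3 factors were then counted over the regions, with at least 1 bp of overlap. A Med1 site was present in 492 of the 496 selected enhancers, compared with 53.9% of all regions in the table, which follows from the same library as the selection. The 4 without one were near Slc35b1 (rank 448), Camk2b (rank 790), Gm15319 (rank 808) and Dock10 (rank 821). All 4 held a Carm1 and a Jmjd1c site. The nearest Med1 site lay 5790 bp from the region near Slc35b1 and 21604 bp from the region near Camk2b, and for Dock10 and Gm15319 the distances were 47922 and 1019619 bp. A total of 733 Med1 sites fell in the selected enhancers, and 211 of these regions (42.5%) held 2 or more, compared with 7.80% of all other regions.

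Carm1 sites were found in 361 of the 496 regions (72.8%, 95% Wilson interval 68.7 to 76.5%), compared with 33.4% of all regions in the table. Jmjd1c sites were found in 378 (76.2%, 72.3 to 79.7%), compared with 38.8% of all regions. A site of both Carm1 and Jmjd1c was found in 302 (60.9%, 56.5 to 65.1%), compared with 23.6% of all regions. Sites of all 3 factors, a count that includes the Med1 library of the selection, were found in 298 (60.1%), compared with 19.4% of all regions. Carm1 without Jmjd1c was found in 59 regions, Jmjd1c without Carm1 in 76, and neither in another 59. The share with Carm1 without Jmjd1c was 11.9%, compared with 9.68% of all other regions (difference 2.22 points, 95% Newcombe interval -0.435 to 5.43). At least 1 of the 2 factors had a site in 88.1%, compared with 46.0% of all other regions (difference 42.1 points, 38.8 to 44.9). Carm1 and Jmjd1c sites were not used in the selection, although all 3 factors were called against the same IgG control.

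Relative to the next lower enhancers, the selected enhancers more often held a Carm1 site (62.8% in the former, a difference of 9.98 percentage points, 95% Newcombe interval 4.83 to 14.9), a Jmjd1c site (65.4%, difference 10.8, 5.76 to 15.6) and sites of both (49.3%, difference 11.6, 6.15 to 17.0). Relative to the SEs just above the cutoff, fewer held a Carm1 site (80.5%, difference -7.70, -13.7 to -1.18). For Jmjd1c the difference from these SEs was -1.88 points (-7.99 to 4.68) and for both factors together -7.24 points (-14.2 to 0.0816), so neither was resolved. Without chromosomes 11 and 15, where the IgG signal per kb of the selected enhancers was highest (197 and 199), the difference from the SEs became -6.61 points (-13.3 to 0.732) for Carm1, with an interval that spans 0. The IgG signal per kb of the 3 groups, given above, was close to equal, and its part in these shares was not tested. Jmjd1c without Carm1 was found in 15.3% of the selected enhancers and 9.96% of the SEs just above (difference 5.36 points, 0.150 to 10.0). The share was 16.2% in the next lower enhancers and 15.2% in all other regions (difference from the latter 0.151, -2.87 to 3.68).

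Because longer regions can hold more sites, the shares were also compared within classes of length. Among regions under 5 kb, 76.3% of the selected enhancers and 64.0% of the next lower enhancers held a Carm1 site (difference 12.3 points, 4.27 to 19.5). For Jmjd1c in this class the shares were 76.3% and 66.4% (difference 9.93, 1.91 to 17.1). At 5 to 10 kb the differences were 13.5 points for Carm1 (3.30 to 23.1), 16.2 for Jmjd1c (6.03 to 25.8) and 15.6 for both together (4.93 to 25.7). At 10 to 20 kb they were 8.70, 6.64 and 8.96 points, each with an interval that spans 0. Differences from the SEs just above were resolved at 10 to 20 kb, for Carm1 (72.4% compared with 88.4%, difference -16.0, -25.6 to -5.51) and for both factors together (61.9% compared with 80%, difference -18.1, -28.9 to -6.06). Under 5 kb the difference from these SEs was 2.14 points for Carm1 (-11.8 to 20.5), with 31 SEs in the class.

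**Figure D4:**
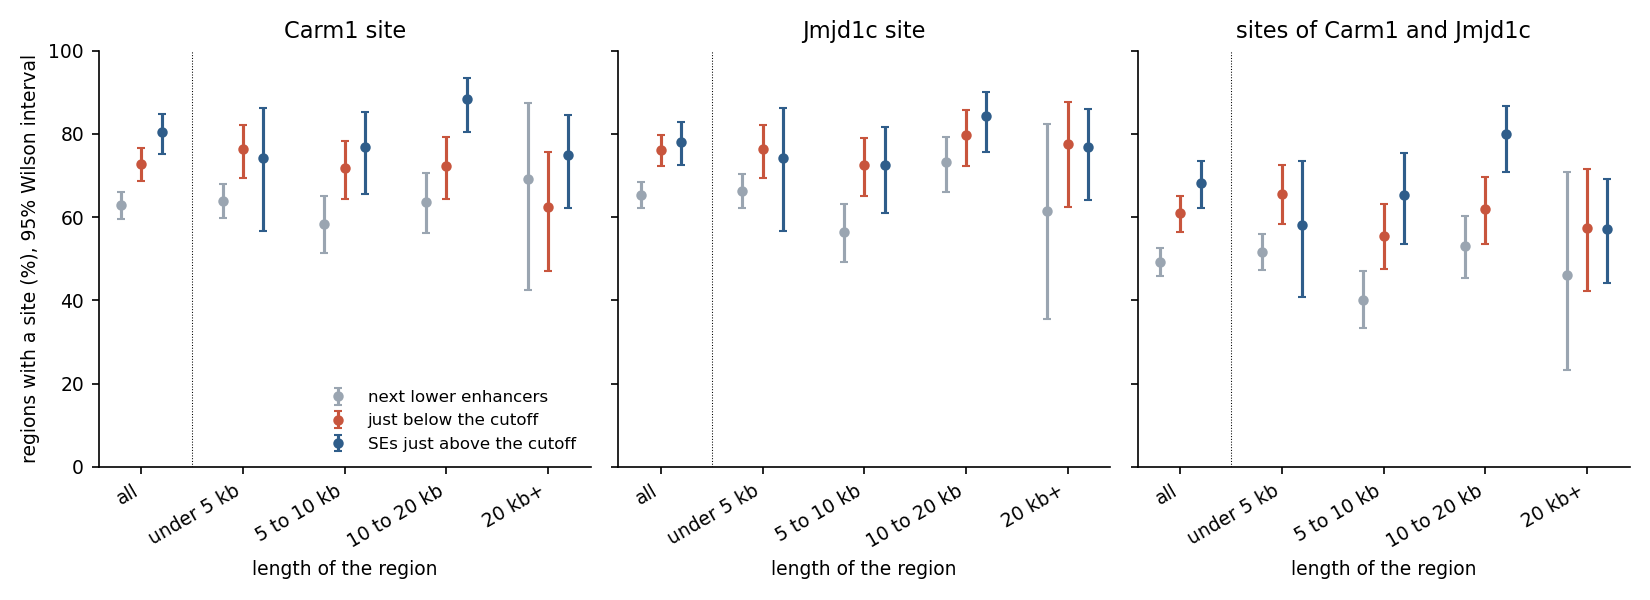
Share of regions with a Carm1 site, a Jmjd1c site or a site of both, in percent with 95% Wilson intervals, for all lengths and by length class. The enhancers just below the cutoff (n = 496) lie above the next lower enhancers (n = 871) under 5 kb and at 5 to 10 kb, and below the SEs just above the cutoff (n = 251) at 10 to 20 kb for Carm1 and for both together.

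Inside the selected range the shares did not follow rank in order. Over ranks 446 to 569 Carm1 sites were found in 75% of regions, and over the next 3 sets of 124 regions each in 74.2%, 70.2% and 71.8%. The shares for Jmjd1c were 83.1%, 66.1%, 77.4% and 78.2%, so that the second set (57.4 to 73.9%) lay below the first (75.5 to 88.6%). The 59 regions with neither Carm1 nor Jmjd1c were close to the 302 with both in Med1 density, with a median Med1 signal per kb of 498 and 521 and a median Med1 to IgG ratio of 3.50 and 3.54. They lay closer to genes, with a median distance to the nearest transcription start site (TSS) of 16437 bp compared with 40701 bp, a description that was not tested.

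Per unit of length the order was different. The selected enhancers held 0.0916 Carm1 sites per kb (424 sites, 95% Poisson interval 0.0830 to 0.101), compared with 0.0779 (0.0688 to 0.0877) in the SEs just above and 0.110 (0.102 to 0.1197) in the next lower enhancers. For Jmjd1c there were 0.103 sites per kb (475 sites, 0.0936 to 0.112), compared with 0.0802 (0.0710 to 0.0902) and 0.118 (0.109 to 0.128). Counted per joined enhancer, Carm1 sites numbered 0.525, 0.522 and 0.491, and Jmjd1c sites 0.588, 0.538 and 0.526, with overlapping intervals. The density per kb was therefore lowest in the SEs, which are the longest of the 3 groups.

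At least 2 Carm1 sites were found in 60 of the selected enhancers (12.1%), compared with 24.3% of the SEs just above (difference -12.2, -18.4 to -6.38) and 5.74% of the next lower enhancers (difference 6.36, 3.24 to 9.80). At least 2 Jmjd1c sites were found in 89 (17.9%), compared with 26.3% and 7.69%. Over all other regions in the table the shares with at least 2 sites were 3.38% for Carm1 and 4.03% for Jmjd1c. Longer regions can hold more sites, and these counts were not compared within classes of length. The most sites of both factors together were found near Chl1 (rank 646, 3 Carm1 and 3 Jmjd1c sites) and Sipa1l2 (rank 575, also 3 and 3). Chl1 is a neural cell adhesion molecule, and Sipa1l2 a regulator of Rap GTPases. Regions near Tnr, Dock10, Olfml2a and Pik3cb held 2 Carm1 and 3 Jmjd1c sites each. The region near Sstr5, a somatostatin receptor, held 1 and 3, the region near Chn2 also held 1 and 3, and the regions near Myc and Tmem26 held 2 and 2.

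Carm1 and Jmjd1c sites often coincided. Of the 424 Carm1 sites in the selected enhancers, 273 (64.4%, 59.7 to 68.8%) had the midpoint of a Jmjd1c site within 200 bp. The share was 61.1% in the SEs just above the cutoff, 63.4% in the next lower enhancers and 56.4% (54.3 to 58.6%) in all other typical enhancers. A Med1 site overlapped 92.2% of the Carm1 sites (89.3 to 94.4%) and 90.5% of the Jmjd1c sites (87.6 to 92.8%). In all other typical enhancers these shares were 64.9% and 63.7%, and in all SEs 95.5% and 94.5%. Med1 sites differ in number between these groups through the selection itself, so the last comparison is a description. Overlap here means at least 1 bp, and Med1 sites were wide, with a median of 1822 bp in the selected enhancers. The Carm1 and Jmjd1c sites there had median widths of 337.5 and 365 bp. The paired centres lay at a median of 132 bp from the midpoint of their Med1 site.

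With regard to position, the middle of 237 selected enhancers (47.8%) lay in an intron, of 5.65% in an exon and of 46.6% between genes. The nearest TSS of a protein-coding gene was at a median of 36707.5 bp from the middle of the region, and 65 regions (13.1%) had their middle within 10 kb of one. For each of these shares the interval of the difference from the SEs just above and from the next lower enhancers spanned 0. An SE lay within 100 kb of 86 of the 496 regions (17.3%), compared with 8.86% of all other regions (difference 8.48 points, 5.33 to 12.1). In the next lower enhancers the share was 11.9% (difference 5.40 points, 1.54 to 9.49). Within length classes this difference was resolved at 5 to 10 kb (8.16 points, 0.371 to 16.2), and its interval spanned 0 under 5 kb (3.58, -2.03 to 10.3), at 10 to 20 kb (3.32, -4.65 to 11.7) and at 20 kb and more. Of the SEs just above the cutoff, 26.3% had another SE within that distance. The SEs rest on the same Med1 library as the selection, and with both limits 10% lower the difference from the next lower enhancers was 2.71 points (-0.817 to 6.41).

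In total, 461 protein-coding genes were nearest to a selected enhancer, of which 29 were nearest to 2 and 3 to 3 of them. These 3 were Tbl1xr1, Sh3pxd2b and Pabpc6. For 68 enhancers (13.7%) the nearest gene was also nearest to an SE, which concerned 59 genes. The share was 12.1% over all other regions (difference 1.63 points, -1.22 to 5.02), which include the SEs themselves. It was 9.53% in the next lower enhancers (difference 4.18, 0.702 to 7.93) and 6.60% in all other typical enhancers. Nearness does not show which gene an enhancer acts on. The genes below belong to 24 lists of pathways, gene families and cell types, of which 20 had a gene nearest to a selected enhancer. A gene can be counted both as nearest to a selected enhancer and as nearest to an SE. Of all 22238 annotated protein-coding genes, 2.07% were nearest to a selected enhancer and 1.80% to an SE, and 4797 were nearest to any region in the table.

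Around Tbl1xr1, a subunit of the NCoR and SMRT corepressor complexes, 3 selected enhancers flanked an SE of rank 69. The enhancer of rank 510 lay 438 kb upstream of the TSS (Med1 3992, IgG 1011), the one of rank 495 lay 404 kb upstream (3534 and 505), and the one of rank 553 lay 141 kb upstream (4088 and 1221). Each of them held 1 site of Med1, Carm1 and Jmjd1c. The SE between them, 260 kb upstream, had 11498 units of Med1 and 3365 of IgG signal, with 6 Med1, 3 Carm1 and 3 Jmjd1c sites.

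**Figure D5:**
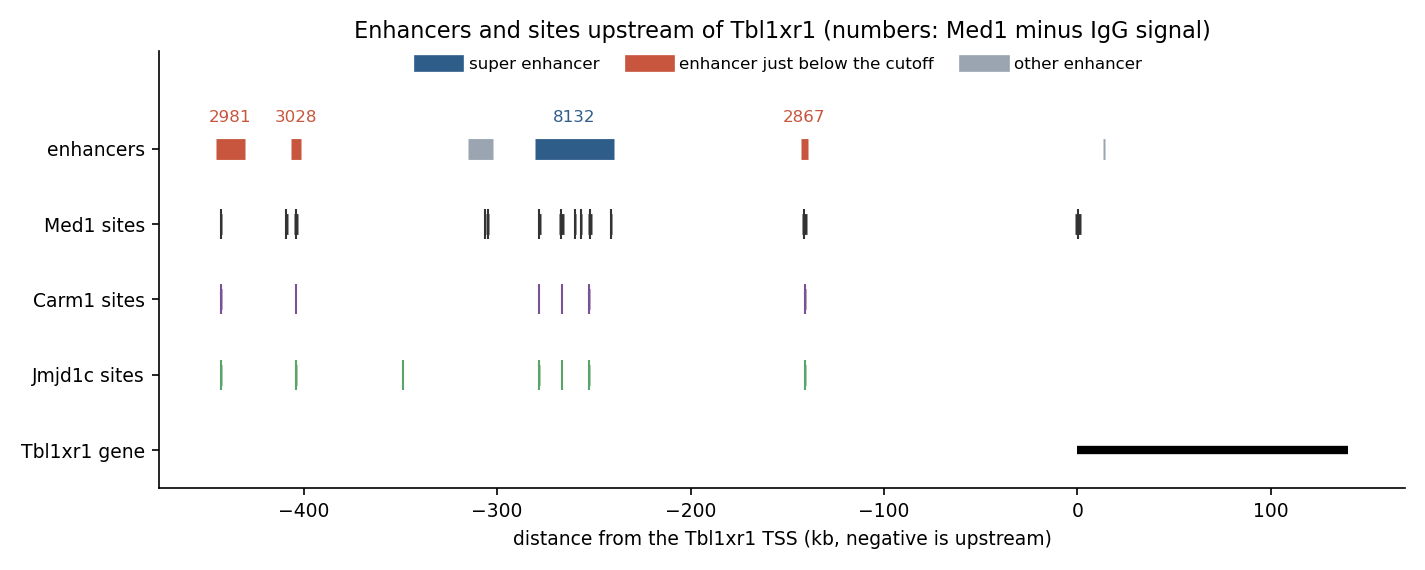
Enhancers and sites of Med1, Carm1 and Jmjd1c around the Tbl1xr1 gene, by distance in kb from its TSS, with Med1 minus IgG signal printed above the SE and the 3 enhancers just below the cutoff. The 3 enhancers (2981, 3028 and 2867) lie on both sides of the SE (8132), and each has a site of all 3 factors.

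For 2 growth regulators, the gene nearest to a selected enhancer was also nearest to a much stronger SE. The enhancer of rank 496, 225 kb downstream of the TSS of Myc, in an intron of the noncoding RNA Pvt1, had 6811 units of Med1 and 3786 of IgG signal, with 2 sites of each factor. An SE of rank 29 (15697 and 3979) lay 93.6 kb from it. Near Ccnd1, which encodes the G1 cyclin D1, a 3240 bp enhancer within the neighbouring gene Oraov1 (rank 583, Med1 3960, IgG 1187) held a Med1 site along its whole length and neither Carm1 nor Jmjd1c. The SE assigned to Ccnd1 ranked 25 (15114 and 2769) and lay 161 kb from this enhancer, on the other side of the TSS. At Ptn, the gene of the secreted growth factor pleiotrophin, a selected enhancer 7.88 kb upstream of the TSS (rank 555, 3788 and 924) lay between SEs of rank 77 and 339 and held a site of all 3 factors.

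Of the factors that keep NSCs undifferentiated or direct glial fate, the gene of the SOX family member Sox9 had 2 selected enhancers, 59.9 kb (rank 763, Med1 3618, IgG 1294) and 270 kb (rank 602, 3995 and 1280) downstream of its TSS, and an SE of rank 433 at 405 kb. The nearer one held Jmjd1c without Carm1 and the farther one held both. Sox5 had an intronic enhancer of 22674 bp (rank 731, 4115 and 1739) with 2 Jmjd1c sites and no Carm1 site. Nfix, a member of the NFI family, had an intronic enhancer 5.97 kb from its TSS (rank 907, 2688 and 631) with all 3 factors. Of the 12 annotated SOX genes 2 were nearest to a selected enhancer, 3 to an SE and 8 to any region, and the 2 were among the 3. Of the 11 genes of the NFI, E-protein and Id list these numbers were 1, 4 and 6.

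The POU factors Pou3f1 and Pou3f2, which act in neural progenitors, each had a selected enhancer with all 3 factors close upstream. It lay 8.30 kb from the TSS of Pou3f1 (rank 542, Med1 3806, IgG 912) and 6.69 kb from that of Pou3f2 (rank 756, 2619 and 285). The latter had a Med1 to IgG ratio of 9.20 over 2293 bp. Of the forebrain factors, Npas3 had 2 enhancers in the introns of the neighbouring gene Akap6 (rank 535, 3597 and 682, and rank 901, 3174 and 1111), and Rfx4 had 1 (rank 678, 3890 and 1386). All 3 held all 3 factors. The paper lists Pou3f1 and Npas3 among genes with both an SE and a broad promoter, with SEs assigned to the nearest active gene. Here the nearest protein-coding gene was taken whatever its activity, and by that rule neither gene was nearest to an SE. An SE lay 17.5 kb from the selected enhancer near Pou3f1. Tead1, a target factor of the Hippo pathway, had an intronic enhancer (rank 454, 4720 and 1497) with 2 Med1 sites and neither of the other factors. Trps1, on the list of Mediator-interacting transcription factors, had 1 (rank 817, 3060 and 838) with Jmjd1c only.

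Among cell type markers, selected enhancers were nearest to 2 of 20 annotated genes of the neural stem cell and radial glia list, 1 of 12 astrocyte genes and 1 of 14 oligodendrocyte genes. In the same order, 6, 2 and 3 genes of these lists were nearest to an SE, and 11, 4 and 8 to any region. The genes of these 3 lists nearest to a selected enhancer (2, 1 and 1) were all nearest to an SE as well. Slc1a3, the glutamate transporter of radial glia and astrocytes, had an enhancer 72.3 kb upstream (rank 639, Med1 3792, IgG 1195) with neither Carm1 nor Jmjd1c. Aldh1l1, a folate enzyme used as an astrocyte marker, had an intronic enhancer (rank 598, 3567 and 837) with Carm1 only. Bcas1, a gene of early myelinating oligodendrocytes, had an enhancer with its middle in an annotated exon (rank 505, 3306 and 304), with a Med1 to IgG ratio of 10.9 and a site of all 3 factors. No gene of the lists for neurons, the Hedgehog pathway, pluripotency or other cell types (endothelium, microglia, mesoderm) was nearest to a selected enhancer, out of 16, 12, 9 and 14 annotated genes. In the same order, 1, 1, 0 and 0 genes were nearest to an SE, and 9, 5, 3 and 2 to any region.

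Genes of signalling pathways were each nearest to few of the regions. Fgfr1, a receptor for the FGF2 in the medium, had an intronic enhancer 26.1 kb from its TSS (rank 545, Med1 4165, IgG 1280) with Jmjd1c only, and together with Ccnd1 it made 2 of 28 genes of the EGF and FGF list. From the Wnt list 3 of 29 genes were found, namely the ligand Wnt7a (rank 875, 2993 and 900), the receptor Fzd1 (rank 898, 2977 and 908) and the effector Tcf7l2 (rank 917, 3031 and 983). The last 2 held all 3 factors and Wnt7a held Med1 alone. From the BMP and TGF-beta list 3 of 24 were found, the receptor Tgfbr2 (rank 750, 2984 and 639) and the repressors of SMAD signalling Tgif1 (rank 625, 4038 and 1406) and Ski (rank 931, 2450 and 426). The short enhancer in Tgfbr2, of 1732 bp, was covered by a Med1 site and held 1 Carm1 and 2 Jmjd1c sites. Maml2, a coactivator of Notch, was the 1 gene found of 21 in the Notch list (rank 666, 3447 and 915), without Carm1 or Jmjd1c. Genes nearest to an SE numbered 8 in the EGF and FGF list, 3 in Wnt, 1 in BMP and TGF-beta and 1 in Notch. Those nearest to any region numbered 21, 22, 13 and 11.

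Of genes that respond quickly to stimuli, Nr4a1, an orphan nuclear receptor, had a 1493 bp enhancer 20.3 kb upstream (rank 801, Med1 2556, IgG 304) with Med1 and Carm1. The enhancers near Ier5 (rank 569, 4980 and 2157) and Ier3 (rank 812, 2802 and 571) held Carm1 only and Jmjd1c only, beside Med1. Nr3c1, the glucocorticoid receptor, had a 3476 bp region whose middle lay 972.5 bp from its TSS (rank 546, 3746 and 862). This region spans the TSS, was covered to 98.0% by Med1 sites and held neither of the other factors. Klf10, a Kruppel-like factor induced by TGF-beta, had 1 (rank 752, 2783 and 441), also with Med1 alone.

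Extracellular matrix and proteoglycan genes nearest to a selected enhancer numbered 6 of the 26 annotated in their list. They were Xylt1, which starts the sugar chains of proteoglycans (rank 490, Med1 4103, IgG 1054), the brain proteoglycan Cspg5 (rank 532, 3944 and 1023), the laminin chain Lama5 (rank 615, 3942 and 1260), tenascin R, encoded by Tnr (rank 708, 4467 and 2039), Sparc (rank 840, 3134 and 956) and the heparan sulfate sulfatase Sulf2 (rank 868, 2847 and 739). Cspg5, Tnr, Sparc and Sulf2 held all 3 factors, Xylt1 held Jmjd1c without Carm1, and Lama5 held Med1 alone. Of the same 26 genes, 7 were nearest to an SE and 18 to any region in the table. Of the 46 guidance and adhesion genes, 32 were nearest to any region, 7 to an SE and 3 to a selected enhancer. The cadherin gene Cdh4 had 2 intronic enhancers (rank 584, 3567 and 796, and rank 758, 3614 and 1281), Chl1 had 2 (rank 646, 5053 and 2471, and rank 684, 3477 and 995), and Sema6d had 1 (rank 616, 3468 and 791).

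Regulators of the actin cytoskeleton and of small GTPases nearest to a selected enhancer numbered 8 of the 54 annotated in their list. The 6 of highest rank were Arhgap21 (rank 453, Med1 4823, IgG 1598), the formin Fmnl2 (rank 478, 4492 and 1377), Rasa3 (rank 558, 3738 and 883), Arhgap31 (rank 590, 3720 and 964), the formin Diap1 (rank 699, 3161 and 706) and the exchange factor Trio (rank 748, 3397 and 1047). Arhgap21 and Fmnl2 held all 3 factors, Rasa3 held Med1 alone, and Arhgap31, Diap1 and Trio held Med1 and Carm1 without Jmjd1c. Of the same 54 genes, 16 were nearest to an SE and 37 to any region. Among coactivators and chromatin regulators 3 of 29 were found. Besides Tbl1xr1 these were the remodeller Chd7 (rank 724, 4325 and 1938) and Jmjd1c itself. Of the same 29 genes, 7 were nearest to an SE and 20 to any region. The enhancer nearest to the Jmjd1c gene lay 102 kb upstream (rank 597, 3476 and 746) and held 1 Med1, 2 Carm1 and 1 Jmjd1c site.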

How the data were processed

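The enhancer table gives, for each region, Med1 and IgG signal that the authors deposited as read density scaled to mapped reads and summed over the region by ROSE, after aligning reads to mm9 with Bowtie 0.12.7 and removing duplicates with Picard 1.81, per the submitters' processing notes and the methods. The deposited positions of Med1, Carm1 and Jmjd1c sites come from MACS 1.4.2 with IgG as control. The threshold of the Carm1 and Jmjd1c lists is not settled here. The table was built by the authors from regions with Ep300 and H3K27ac, and replicates were merged where there were several. Depth is unknown, since no source used here gives read totals.

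Regions were selected on Med1 minus IgG signal. Sites were counted by overlap of at least 1 bp, nearest genes came from GENCODE vM1 on NCBIM37 (5′ ends of protein-coding genes), and 485 of 491 listed genes were found there. Distances to a TSS were measured from the middle of the region. Shares carry Wilson, differences Newcombe, and rates exact Poisson intervals at 95%. No p-value was computed. The members and gene lists were chosen with earlier results of these data known. Named were the nearest genes of the 10 regions highest in rank, density, length and number of Carm1 and Jmjd1c sites, up to 6 per gene list, and the 3 regions on each side of both limits. The 4 regions without a Med1 site and the U2 region were named after their values were seen. A region and a sequence that the rule names are not reported here. Alternatives covered limits, chromosomes, overlap, stricter sites, length, distances and motif window. Functions were tested on simulated data. Python 3.11.15, numpy 2.4.6, pandas 2.3.3, scipy 1.17.1 and pysam 0.24.0 were used.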

Additional observations from a re-analysis of the deposited data

How the results depend on the processing

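No paired analysis was possible because each antibody has 1 sample. Of 139 alternative values, 94 either stayed on the same side of their threshold or moved within their interval, and the other 45 follow. Differences whose interval spanned 0 could change sign among the 94. For Jmjd1c against the SEs just above, the difference was 2.14 points under 5 kb, 0.0853 at 5 to 10 kb, 0.714 at 20 kb and more, 0.273 with limits 10% higher and -5.89 with stricter sites. For both Carm1 and Jmjd1c it was 7.62 under 5 kb and 0.357 at 20 kb and more. The shift of both limits for the shares of sites and of SEs nearby, and the share with both Carm1 and Jmjd1c, were chosen after seeing the data. Applying the same limits to Med1 signal without subtracting IgG gave 839 regions, of which 171 were among the 496. The 839 regions had a median length of 5520 bp and a median Med1 signal per kb of 445. The 496 had a median Med1 signal of 3548, above the upper limit, because IgG is not subtracted from it. The overlap therefore does not show how a ranking on Med1 alone would change the selection. Limits 10% higher or lower gave median lengths of 7891.5 and 6163.5 bp. With stricter sites the shares were 56.5% for Carm1, 57.5% for Jmjd1c, 40.5% for both and 36.3% for all 3 factors, and with the wider sites alone 0.0665 Carm1 and 0.0678 Jmjd1c sites per kb. Within length classes, Carm1 was found in 62.5% at 20 kb and more, Jmjd1c in 79.9% at 10 to 20 kb, both in 65.7% under 5 kb and 55.6% at 5 to 10 kb, and all 3 factors in 65.1% under 5 kb, 55.6% at 5 to 10 kb and 55.0% at 20 kb and more. With both limits 10% lower, Jmjd1c was found in 72.2%.

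For the difference from the SEs just above the cutoff, Carm1 gave -6.61 points without chromosomes 11 and 15, 2.14 under 5 kb, -4.92 at 5 to 10 kb and -12.5 at 20 kb and more. The interval no longer spanned 0 for Jmjd1c with both limits 10% lower (-8.03), nor for both factors together with stricter sites (-8.88), at 10 to 20 kb (-18.1) and with both limits 10% lower (-9.93). For the difference from the next lower enhancers, Carm1 gave 8.70 at 10 to 20 kb and -6.73 at 20 kb and more, Jmjd1c gave 6.64 and 16.0, and both together gave 8.96 and 11.3. At 20 kb and more there were 13 of the next lower enhancers. At 10 to 20 kb there were 134 selected and 168 next lower enhancers, compared with 153 and 190 at 5 to 10 kb. Why the differences changed was not tested. The share with an SE within 100 kb differed by 2.71 points from the next lower enhancers with limits 10% lower, and by -5.71 from the SEs above with limits 10% higher. Carm1 sites with a Jmjd1c site made up 46.2% within 100 bp, 71.0% within 500 bp and 69.8% by overlap. With any annotated gene the median distance was 25525 bp, and 305 of 496 regions kept their nearest gene. Within 50 bp, motifs were found at 39.0% (E-box), 33.1% (NFI motif), 27.6% (SOX), 1.10% (octamer) and 4.41% (AP-1) of centres, and the SOX difference was 0.270 points.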

Other observations

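Of the selected enhancers 54 (10.9%) lay on chromosome 11, compared with 13.1% of the SEs just above and 8.61% of the next lower enhancers, and the interval of both differences spanned 0. Among all other typical enhancers the share was 5.302% (difference 5.58 points, 3.08 to 8.67). The median IgG signal per kb of the selected enhancers was 197 on chromosome 11 and 199 on chromosome 15, compared with 135 over all of them. The part of the IgG level in these shares was not tested.

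Near Sh3pxd2b, which encodes an adaptor protein of podosomes, 3 selected enhancers lay at 15.9 kb upstream and 13.5 and 36.0 kb downstream of the TSS without an SE assigned to the gene. Their Med1 signals were 4153, 4292 and 2772 and their IgG signals 999, 1439 and 386. Each held Med1, Carm1 and Jmjd1c sites. In all, 25 neighbouring pairs of selected enhancers lay 50 kb or less apart.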
